A study of Rattus norvegicus with 6 samples.

Results

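The genes of cytosolic translation initiation and elongation factors were described in cultured cells from rat amniotic fluid. Members were taken by gene symbol, as all genes whose symbol starts with Eif and a digit or with Eef1 or Eef2, apart from the Y-linked Eif2s3y, which gave 66 of the 22085 genes listed. Of these, 52 are named as initiation factors (Eif) and 14 as elongation factors or their modifying enzymes (Eef), and all 66 passed the filter on low counts. The 3 preeclampsia libraries came from a rat model of preeclampsia, a hypertensive disorder of pregnancy, and the 3 control libraries from control pregnant rats. Amniotic fluid was taken on embryonic day 18.5 in both groups, and the cells, called mesenchymal stem cells in the labels, were grown in serum-containing medium and sequenced at passage 4. Rat strain, genotype, maternal age, how the model was made and how many dams or fetuses each library holds are not stated in the labels. Every p-value therefore measures the spread between these libraries, which may be partly technical.

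Translation starts when eIF2, carrying the initiator tRNA, and eIF3 join the small ribosomal subunit, and the cap-binding complex eIF4F brings in the mRNA and unwinds its leader. The start codon is found with the help of eIF1, eIF1A and eIF5, and eIF5B helps the large subunit to join. In elongation, eEF1A delivers the charged tRNAs, the eEF1B subunits reload eEF1A with GTP, and eEF2 moves the ribosome along. Phosphorylation of eIF2 by its kinases lowers initiation in general and favours translation of stress genes such as Atf4, while the eIF4E-binding proteins hold back cap-dependent initiation until the kinase complex mTORC1 phosphorylates them. Several elongation factors and some eIF3 subunits are encoded by mRNAs that start with a run of pyrimidines and whose translation is under mTORC1 control, in common with the mRNAs of ribosomal proteins.

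The leader start of such genes is shown for 5 of the 9 members held to have oligopyrimidine mRNAs (Eef1a1, Eef1b2, Eef1d, Eef1g, Eef2, Eif3f, Eif3h, Eif4b and the gene of the eIF3e subunit), those with an entry in RefSeq's promoter set of build GRCr8, followed by 2 initiation genes outside that list, Eif4a3 and Eif4h, for comparison. Each sequence holds 25 bases before and 25 bases from the annotated transcript start, read 5′ to 3′ on the transcribed strand, and capitals mark runs of 7 or more bases that are all C or T.
Eef1a1: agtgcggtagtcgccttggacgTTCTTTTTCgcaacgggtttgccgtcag
Eef2: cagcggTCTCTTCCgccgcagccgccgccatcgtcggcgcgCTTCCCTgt
Eef1g: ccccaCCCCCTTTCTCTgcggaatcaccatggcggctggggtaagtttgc
Eef1b2: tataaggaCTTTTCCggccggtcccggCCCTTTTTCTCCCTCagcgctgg
Eif3f: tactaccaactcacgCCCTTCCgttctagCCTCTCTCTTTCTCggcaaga
Eif4a3: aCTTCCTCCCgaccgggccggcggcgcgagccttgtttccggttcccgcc
Eif4h: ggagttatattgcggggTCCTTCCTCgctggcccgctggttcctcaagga
In GRCr8 these windows are chr8:88225045-88225094 on the minus strand for Eef1a1, chr7:9189214-9189263 on the minus strand for Eef2, chr1:215289790-215289839 on the plus strand for Eef1g and chr9:72074066-72074115 on the plus strand for Eef1b2. They are chr1:172369037-172369086 on the plus strand for Eif3f, chr10:105057537-105057586 on the minus strand for Eif4a3 and chr12:27719667-27719716 on the plus strand for Eif4h. All 5 oligopyrimidine members held such a run on the transcribed strand, with a longest run of 15 bases in Eef1b2, 14 in Eif3f, 12 in Eef1g, 9 in Eef1a1 and 8 in Eef2, and both comparison genes held one of 9. Over all members, 25 of the 57 with an entry held such a run (43.9%), beside 31.4% of all 27457 genes with one, so that its presence alone does not set a gene apart. A run reaches or closely follows the annotated start in Eef1a1, Eef1b2, Eif3f and the comparison gene Eif4h, and lies before it in Eef1g and Eif4a3. In Eef2 the longer run lies before the start and the shorter follows at a distance, so that neither is at the start.

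The libraries held between 48402185 and 59193961 counts, of which members took 1.86% to 2.01% in the preeclampsia libraries and 1.65% to 1.76% in the control libraries. On the first principal component of all genes, which held 33.3% of the variance, preeclampsia libraries 2 and 3 lay together at 69.24 and 68.48, while preeclampsia library 1 lay at -40.92 among the 3 control libraries, between -44.36 and -17.98. Levels are given as FPKM, fragments scaled to transcript length and total library depth. As this unit does not correct for differences in library composition, comparisons of FPKM between libraries are approximate. Mesenchymal markers such as Thy1, Vim and Col1a1 summed to 5415 to 7967 FPKM over 9 genes in the preeclampsia libraries and 5219 to 5991 in the control libraries. By edgeR, 6 of these 9 markers had a log2 fold change above 0 and 3 below, the lowest being -0.78 for Cd44 (SE 0.49). The groups did not overlap in 1 of the 9, which was higher, where 6.15% of all genes tested were. That gene was Pdgfra, a growth factor receptor gene, at 225, 236 and 411 FPKM in the preeclampsia libraries and 99.76, 97.7 and 116 FPKM in the control libraries. Its log2 fold change was 1.5 (SE 0.27), with an adjusted p of 0.373 by edgeR and 6.068e-05 by DESeq2. Over 9 macrophage and blood markers the sums were 20.9 to 296 FPKM in the preeclampsia libraries and 18.5 to 124 in the control libraries. Over 4 endothelial markers they were 0.51 to 3.71 FPKM in the preeclampsia libraries and 0.69 to 2.35 in the control libraries. Over 5 epithelial markers they were 0.45 to 1.56 FPKM in the preeclampsia libraries and 3.93 to 55.03 in the control libraries, which did not overlap, with Krt19 listed at 0 in all preeclampsia libraries and Epcam at 0 in all control libraries. Krt8 stood at 0.4, 1.22 and 1.35 FPKM in the preeclampsia libraries and at 1.12, 37.4 and 8.41 FPKM in the control libraries, with overlap. Krt18 stood at 0.05, 0.2 and 0 FPKM in the preeclampsia libraries and at 0.48, 17.15 and 4.38 FPKM in the control libraries. DESeq2 called both lower (adjusted p = 0.00861 for Krt8 and 0.000335 for Krt18), and edgeR called neither (adjusted p = 0.473 and 0.441). Dividing-cell markers such as Mki67 and Top2a summed over 8 genes to 341, 71.2 and 72.7 FPKM in preeclampsia libraries 1 to 3 and to 130, 175.5 and 70.8 FPKM in control libraries 1 to 3. The part of cell composition and of division in the results on translation factors was not tested, and in bulk RNA fewer cells of a type and less RNA per cell cannot be told apart.

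Most translation factor mRNAs were abundant. Of the 66 members, 15 averaged at least 100 FPKM, 38 lay between 10 and 100, and 13 lay under 10. Within a group, the coefficient of variation of a member had a median of 12.3% in the preeclampsia group and 10.3% in the control group, against 20.8% and 19.8% over all 15776 genes tested. Those genes were not matched to the members in abundance, so the lower spread cannot be credited to translation factors as such. The preeclampsia and control groups were compared with edgeR's quasi-likelihood test on the counts, with p-values adjusted over all 15776 genes. No member passed an adjusted p of 0.05 (smallest 0.473), where 0.0% of all genes passed in either direction. DESeq2, which called 0.976% of all genes as higher and 1.24% as lower, 2.22% in all, also called no member, and neither did limma on log2 FPKM. Before adjustment, 6 of 66 members had a p under 0.05 in edgeR, all of them higher in the preeclampsia group, namely Eef1a1, Eef2, Eif4a3, Eif4h, Eif4b and Eif4e3, where 4.13% of all genes were higher and 5.06% lower at that level, 9.19% in all. That count was 6 without preeclampsia library 1, 1 without preeclampsia library 2, 1 without preeclampsia library 3, 2 without control library 1, 2 without control library 2 and 3 without control library 3. The median log2 fold change of the members was 0.03 (preeclampsia over control), beside 0.01 over all genes tested. In all, 40 of 66 were above 0, beside 51.7% of all genes. That number was 43 with DESeq2's size factors and 35 with library size as the only scaling, and it ran from 32 to 45 on leaving out 1 library.

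The FPKM values of the 3 preeclampsia libraries all lay above those of the 3 control libraries in 11 of 66 members, where 6.15% of all genes tested did so, and all lay below them in 2 of 66, where 8.32% of all genes did so. Those higher were Eef1a1, Eef2, Eef1g, Eif4a3, Eif4h, Eif4b, Eif4e3, Eif4enif1, Eif4ebp2, Eif2b5 and Eef1akmt1, and those lower were Eif4ebp3 and Eif4g3.

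**Figure D1:**
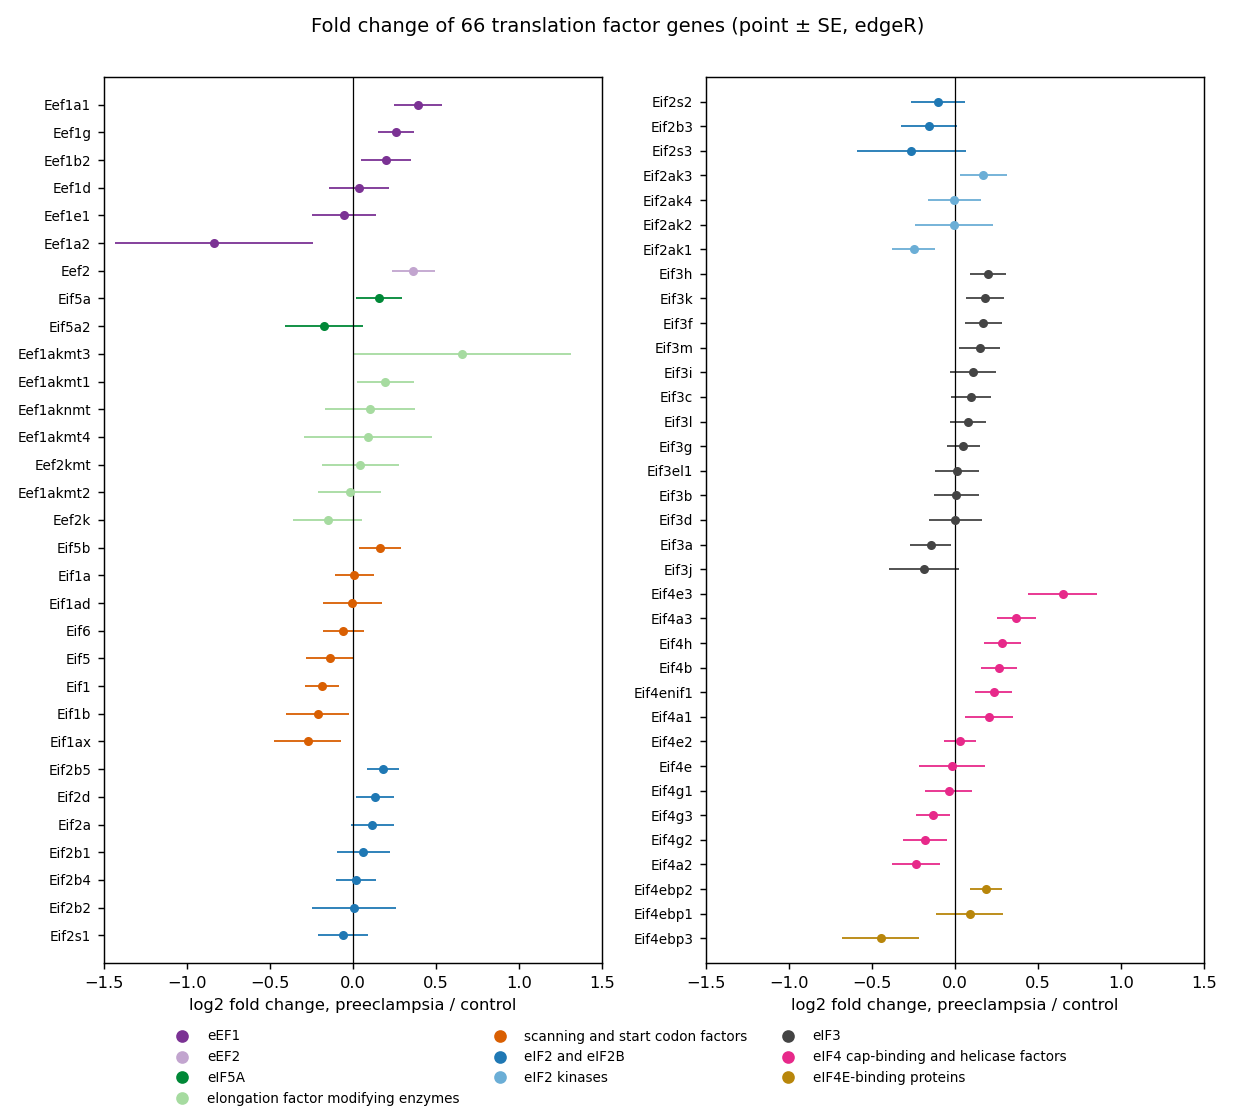
Log2 fold change (preeclampsia over control, horizontal axis) of each of the 66 genes by edgeR, with bars of 1 standard error and colours by role. Most points lie close to 0, none passed the adjusted test, and the points with long bars, such as Eef1a2 and Eef1akmt3, belong to genes under 1 FPKM.

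The 3 most abundant elongation factor genes were higher in every preeclampsia library than in any control library, though none passed the test. Eef1a1 encodes eEF1A, which brings charged tRNAs to the ribosome, and spans 79341554 to 79344715 on the minus strand of chromosome 8 in the deposited table's coordinates, of a build the labels do not name. It stood at 3330.2, 3525 and 3394 FPKM in preeclampsia libraries 1 to 3, against 2600.4, 2451 and 2889.8 FPKM in control libraries 1 to 3. The means were 3416 ± 99.2 FPKM in preeclampsia and 2647 ± 223 FPKM in control (SD, n = 3 each). The lowest preeclampsia value was thus above the highest control value, with a log2 fold change of 0.39 (SE 0.15, adjusted p = 0.505 by edgeR). Eef2, the translocase gene on chromosome 7, stood at 845, 871 and 864 FPKM in the preeclampsia libraries and at 664, 637 and 736 FPKM in the control libraries. The 3 preeclampsia values lay close together and above every control value, with a log2 fold change of 0.36 (SE 0.13, adjusted p = 0.481 by edgeR). Eef1g, a structural subunit of the eEF1B complex, stood at 728, 686 and 676 FPKM in the preeclampsia libraries and at 585, 586 and 601 FPKM in the control libraries. The groups were again apart, at 0.26 (SE 0.11, adjusted p = 0.555 by edgeR). By DESeq2 the 3 genes came nearest to the threshold of all members, at adjusted p = 0.0593 for Eef1a1, 0.0526 for Eef2 and 0.0571 for Eef1g.

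The other subunits of the same complex did not separate the groups. Eef1b2, a nucleotide exchange subunit, stood at 174, 122 and 128 FPKM in the preeclampsia libraries and at 108, 133 and 133 FPKM in the control libraries. The highest value came from preeclampsia library 1 and the other 5 overlapped. Eef1d, the other exchange subunit, stood at 70.21, 56.09 and 45.96 FPKM in the preeclampsia libraries and at 53.19, 65.86 and 50.95 FPKM in the control libraries. Its fold change of 0.03 on the log2 scale (SE 0.18) turned negative without preeclampsia library 1 (-0.11) or without control library 3 (-0.05). The ratio of Eef1g to Eef1b2 FPKM was 4.18, 5.63 and 5.29 in the preeclampsia libraries and 5.41, 4.40 and 4.53 in the control libraries, overlapping between the groups. Eef1a2, the eEF1A paralog of muscle and neurons, was at 0.35, 0.17 and 0.43 FPKM in the preeclampsia libraries and at 0.29, 0.44 and 1.03 FPKM in the control libraries, a small fraction of the level of Eef1a1 in every library.

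Summed over the 7 genes of eEF1 and eEF2, FPKM was 5182, 5284 and 5132 in preeclampsia libraries 1 to 3 and 4034, 3908 and 4438 in control libraries 1 to 3. Eef1a1 alone made up 36.4%, 41.0% and 40.1% of the FPKM of all 66 members in the preeclampsia libraries and 35.5%, 32.2% and 36.5% in the control libraries. The 52 initiation factor genes summed to 3924, 3288 and 3305 FPKM in the preeclampsia libraries and to 3254, 3680 and 3456 FPKM in the control libraries. The elongation sums did not overlap between the groups, while the initiation sums did. The initiation set was made by symbol (Eif) and so includes Eif5a, Eif4a3, the eIF2 kinases and the eIF4E-binding proteins. As sums are led by the most abundant genes, these values say little of the low members.

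**Figure D2:**
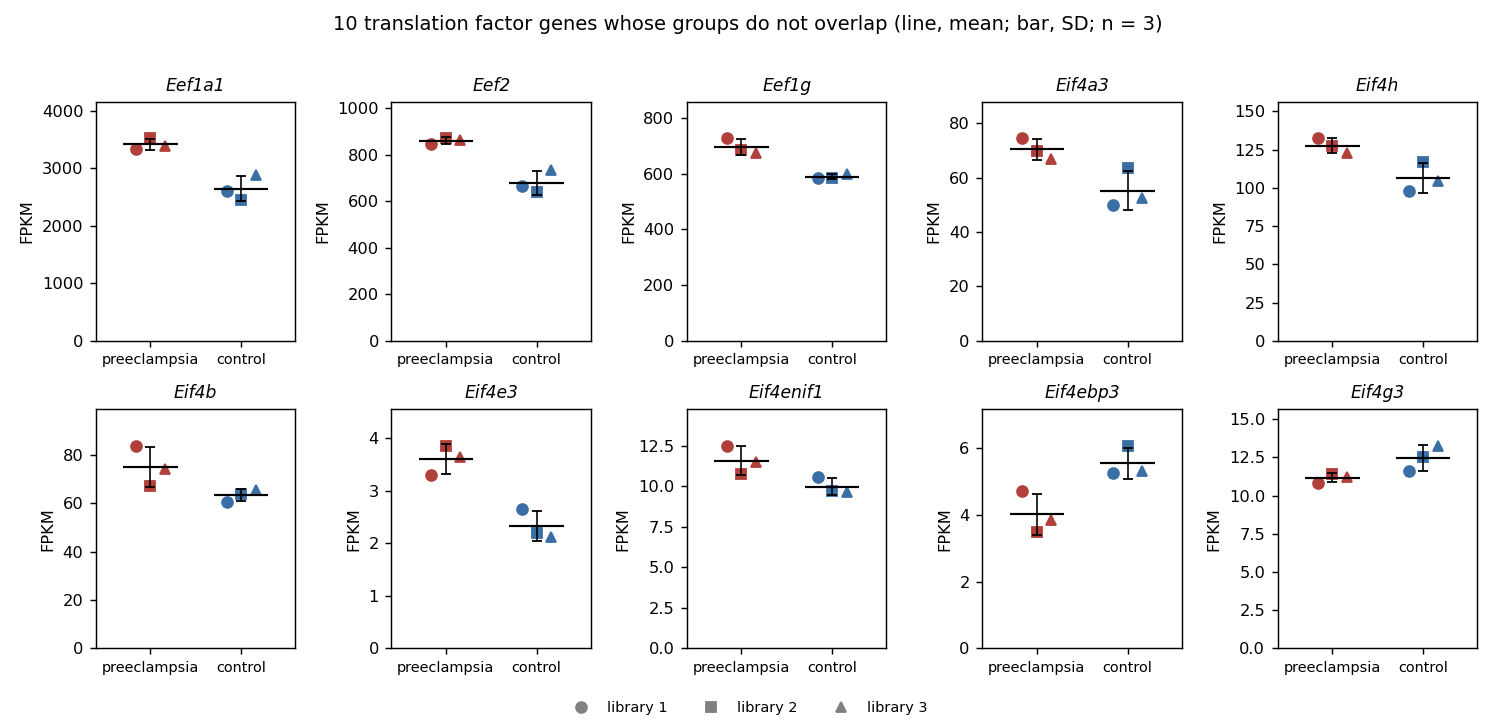
FPKM (vertical axes, from 0) of 10 genes in each library, preeclampsia left and control right, with the mean and SD of 3 libraries and a symbol for each library number. In the first 8 panels every preeclampsia value lies above every control value, and in Eif4ebp3 and Eif4g3 every one lies below.

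The 7 genes of enzymes that act on elongation factors were low, and none passed the test. Eef1akmt3, a lysine methyltransferase of eEF1A, had the highest fold change of all 66 members, at 0.66 on the log2 scale (SE 0.65, adjusted p = 0.830 by edgeR). It stood at 0.46, 0.53 and 0.54 FPKM in the preeclampsia libraries and at 0.44, 0.08 and 0.46 FPKM in the control libraries, with overlap, and the fold change was 0.20 without control library 2, the lowest. Eef2k, the kinase that phosphorylates and inhibits eEF2, stood at 9.37, 11.2 and 8.45 FPKM in the preeclampsia libraries and at 11.83, 8.37 and 12.57 FPKM in the control libraries, with overlap and a log2 fold change of -0.15 (SE 0.21). Eef1akmt1, another such methyltransferase, was at 4.07, 3.73 and 3.81 FPKM in the preeclampsia libraries and at 3.46, 3.38 and 3.43 FPKM in the control libraries. Its groups were apart by a small margin, at 0.19 (SE 0.17, adjusted p = 0.805 by edgeR). Eif5a, whose product carries the modified residue hypusine and helps ribosomes past stretches such as polyproline, stood at 394, 327 and 301 FPKM in the preeclampsia libraries and at 271, 342 and 317 FPKM in the control libraries. Its paralog Eif5a2 stood at 5.06, 3.96 and 5.66 FPKM in the preeclampsia libraries and at 6.97, 4.42 and 5.29 FPKM in the control libraries. Both overlapped, at 0.15 (SE 0.14) for Eif5a and -0.18 (SE 0.23) for Eif5a2.

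**Figure D3:**
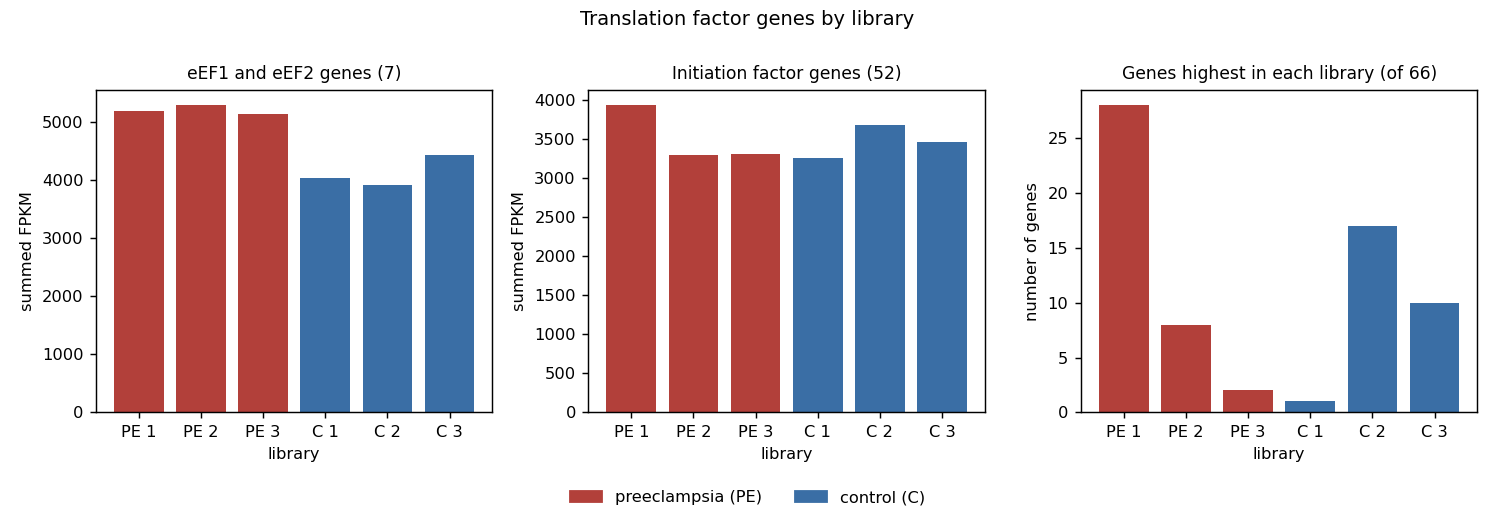
Bars show summed FPKM of the 7 eEF1 and eEF2 genes (left), of the 52 initiation factor genes (middle) and the number of the 66 genes with their highest FPKM in each library (right), preeclampsia libraries before control libraries. The left bars separate the groups (5132 to 5284 against 3908 to 4438 FPKM), the middle bars do not, and preeclampsia library 1 holds the highest value of 28 genes. The right panel was not set beside a count over all genes tested.

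Among the 52 genes named as initiation factors, 9 had groups without overlap, where 14.5% of all genes tested did so in either direction. Of these 9, 6 belong to the 12 cap-binding and helicase genes, with 5 higher and 1 lower, beside 6.15% and 8.32% of all genes. Eif4a3, whose product is a DEAD-box helicase best known as a core part of the exon junction complex, was at 74.55, 69.79 and 66.76 FPKM in the preeclampsia libraries and at 49.85, 63.53 and 52.38 FPKM in the control libraries (log2 fold change 0.37, SE 0.12, adjusted p = 0.473 by edgeR). Eif4h, an RNA-binding cofactor of eIF4A, was at 133, 127 and 123 FPKM in the preeclampsia libraries and at 97.76, 117 and 104 FPKM in the control libraries (0.28, SE 0.11, adjusted p = 0.515 by edgeR). In both genes control library 2 came nearest to the preeclampsia values. Eif4b, the related cofactor, was at 83.78, 67.25 and 74.08 FPKM in the preeclampsia libraries and at 60.66, 63.65 and 65.63 FPKM in the control libraries, where preeclampsia library 2 lay just above control library 3 (0.26, SE 0.11, adjusted p = 0.542 by edgeR).

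Eif4e3, a low paralog of the cap-binding protein, had the largest fold change among the 6 members with a p under 0.05. It was at 3.30, 3.86 and 3.65 FPKM in the preeclampsia libraries and at 2.66, 2.2 and 2.13 FPKM in the control libraries (0.65, SE 0.21, adjusted p = 0.473 by edgeR). Eif4enif1, which encodes the eIF4E transporter 4E-T, was at 12.52, 10.75 and 11.52 FPKM in the preeclampsia libraries and at 10.57, 9.73 and 9.63 FPKM in the control libraries (0.23, SE 0.11). Eif4e itself, the main cap-binding gene, was at 45.66, 31.44 and 29.02 FPKM in the preeclampsia libraries and at 34.02, 42.84 and 31.75 FPKM in the control libraries. Its groups overlapped fully, with a fold change of -0.02 (SE 0.20) that turned positive without preeclampsia library 2 (0.04), preeclampsia library 3 (0.10) or control library 2 (0.11).

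The scaffold and helicase paralogs are given side by side, and differences between them were not tested. Eif4g1, the main eIF4G scaffold, stood at 141, 116 and 108 FPKM in the preeclampsia libraries and at 124, 138 and 116 FPKM in the control libraries, with overlap. Eif4g3, its less abundant paralog, stood at 10.85, 11.41 and 11.24 FPKM in the preeclampsia libraries and at 11.6, 12.5 and 13.27 FPKM in the control libraries, all preeclampsia values being below all control values (-0.13, SE 0.10, adjusted p = 0.767 by edgeR). Eif4a1, the major helicase gene, stood at 397, 333 and 300.0 FPKM in the preeclampsia libraries and at 291, 334 and 279 FPKM in the control libraries. Eif4a2 stood at 94.92, 76.73 and 106 FPKM in the preeclampsia libraries and at 109.99, 117 and 104 FPKM in the control libraries. Within a library, the FPKM ratio of Eif4a1 to Eif4a2 was 4.18, 4.34 and 2.83 in preeclampsia libraries 1 to 3 and 2.64, 2.86 and 2.69 in control libraries 1 to 3. Preeclampsia libraries 1 and 2 stood apart, and library 3 fell within the control range.

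Of the 3 genes of eIF4E-binding proteins, the groups were apart in 1 higher and 1 lower, where 14.5% of all genes were in either direction. Differences between the genes were not tested. Eif4ebp1, the most abundant, stood at 51.6, 60.76 and 39.05 FPKM in the preeclampsia libraries and at 52.13, 41.89 and 50.28 FPKM in the control libraries, with overlap (0.09, SE 0.20; -0.09 without preeclampsia library 2 and -0.01 without control library 2). Eif4ebp2 was at 19.28, 16.29 and 18.19 FPKM in the preeclampsia libraries and at 15.61, 16.28 and 16.02 FPKM in the control libraries, with preeclampsia library 2 barely above control library 2 (0.18, SE 0.10, adjusted p = 0.643 by edgeR). Eif4ebp3 was at 4.71, 3.50 and 3.85 FPKM in the preeclampsia libraries and at 5.26, 6.08 and 5.31 FPKM in the control libraries, all lower in the preeclampsia group (-0.45, SE 0.23, adjusted p = 0.636 by edgeR).

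The genes of eIF2, its exchange factor eIF2B and its kinases were close between groups. Eif2s1, the alpha subunit that the kinases phosphorylate, stood at 80.51, 57.37 and 64.51 FPKM in the preeclampsia libraries and at 62.21, 82.74 and 68.75 FPKM in the control libraries. The beta subunit gene Eif2s2 was at 119, 78.26 and 92.16 FPKM in the preeclampsia libraries and at 101, 116 and 96.73 FPKM in the control libraries. Both had preeclampsia library 1 and control library 2 on top and overlapped, at -0.06 (SE 0.15) for Eif2s1 and -0.10 (SE 0.16) for Eif2s2. Both turned slightly positive without preeclampsia library 2 (0.02 for Eif2s1 and 0.01 for Eif2s2). Of the 5 eIF2B genes, Eif2b5, the catalytic subunit, was at 20.74, 20.74 and 19.26 FPKM in the preeclampsia libraries and at 17.25, 18.3 and 18.88 FPKM in the control libraries, apart in all libraries (0.18, SE 0.10, adjusted p = 0.648 by edgeR). Eif2b2 stood out for control library 3, at 60.65 FPKM, while control libraries 1 and 2 were at 32.19 and 33.89 FPKM and the preeclampsia libraries at 38.25, 45.83 and 40.36 FPKM.

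Eif2s3, the X-linked gene of the gamma subunit, varied widely between libraries. It was at 78.86, 32.62 and 38.9 FPKM in preeclampsia libraries 1 to 3 and at 49.55, 72 and 59.95 FPKM in control libraries 1 to 3. Preeclampsia libraries 2 and 3 were below every control library and preeclampsia library 1 was above every one. The fold change was -0.26 (SE 0.33, adjusted p = 0.865 by edgeR), and -0.71 without preeclampsia library 1. Its Y-linked counterpart Eif2s3y stood at 5.02, 25.42 and 30.58 FPKM in preeclampsia libraries 1 to 3 and at 16.92, 1.85 and 59.69 FPKM in control libraries 1 to 3, lowest in the 2 libraries where Eif2s3 was highest. Relative to Eif2s1, the Eif2s3 ratio was 0.98, 0.57 and 0.60 in the preeclampsia libraries and 0.80, 0.87 and 0.87 in the control libraries. Eif1ax, also on the X chromosome and encoding eIF1A, had the same low pair, at 53.61, 30.14 and 35.04 FPKM in the preeclampsia libraries and 45.45, 51.74 and 47.33 FPKM in the control libraries (-0.27, SE 0.20; -0.52 without preeclampsia library 1). The part of the sex of the cells in these values was not tested.

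**Figure D4:**
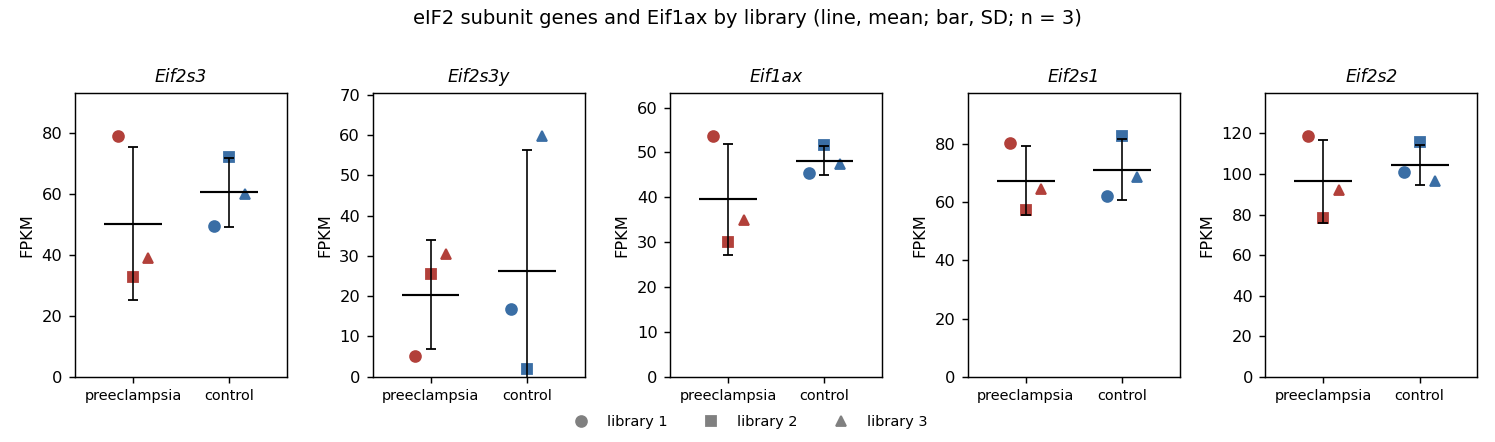
FPKM (vertical axes, from 0) of the 3 eIF2 subunit genes, the Y-linked Eif2s3y and Eif1ax in each library, preeclampsia left and control right, with the mean and SD of 3 libraries (bars cut at 0). Preeclampsia libraries 2 and 3 are the lowest for Eif2s3 and Eif1ax, and Eif2s3y is lowest in preeclampsia library 1 and control library 2.

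The 4 eIF2 kinase genes showed no separation. Eif2ak1, which encodes the heme-regulated kinase HRI, averaged 17.7 ± 1.36 FPKM in preeclampsia and 21.2 ± 2.35 FPKM in control (SD, n = 3 each), with a log2 fold change of -0.25 (SE 0.13). Eif2ak2, which encodes the double-stranded RNA sensor PKR, stood at 24.14, 13.7 and 20.28 FPKM in the preeclampsia libraries and at 17.8, 24.4 and 16.66 FPKM in the control libraries. Eif2ak3, which encodes the endoplasmic reticulum stress sensor PERK, stood at 6.85, 7.22 and 6.91 FPKM in the preeclampsia libraries and at 5.47, 5.97 and 7.55 FPKM in the control libraries. Eif2ak4, which encodes the amino acid sensor GCN2, stood at 6.49, 5.12 and 5.16 FPKM in the preeclampsia libraries and at 4.77, 5.47 and 6.84 FPKM in the control libraries. The groups overlapped in all 4 genes. The log2 fold change was -0.006 (SE 0.23) for Eif2ak2, 0.17 (SE 0.14) for Eif2ak3 and -0.004 (SE 0.16) for Eif2ak4. The sign for Eif2ak2 and Eif2ak4 depended on the scaling, being positive with DESeq2's size factors.

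The eIF3 complex, which organises the initiation complex on the small subunit, was even across its genes. Of its 13 genes, 11 were above 0 and 2 below, beside 51.7% of all genes above 0. The 13 lay between -0.19 and 0.20 on the log2 scale, with a median of 0.08, and the groups overlapped in FPKM in every one. Eif3c, the most abundant, stood at 161, 171 and 150.07 FPKM in the preeclampsia libraries and at 154, 151 and 153 FPKM in the control libraries (0.10, SE 0.12). Eif3h was at 135, 121 and 127 FPKM in the preeclampsia libraries and at 96.78, 120.07 and 122 FPKM in the control libraries (0.20, SE 0.11), with only preeclampsia library 2 under the highest control value. Eif3f was at 87.7, 98.47 and 94.55 FPKM in the preeclampsia libraries and at 80.69, 82.45 and 90.56 FPKM in the control libraries (0.17, SE 0.11). The eIF3e subunit is listed in the table as Eif3el1, under the gene ID that RefSeq calls Eif3e, and stood at 73.86, 52.78 and 67.19 FPKM in the preeclampsia libraries and at 58.6, 67.33 and 68.79 FPKM in the control libraries (0.01, SE 0.13, negative with library size as the only scaling and in limma).

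Of the 8 genes grouped as scanning and start codon factors, 6 were below 0 and 2 above, beside 51.7% of all genes above 0. Their median was -0.10, and no gene's groups were apart in FPKM. The group also holds Eif5b, which acts in subunit joining, Eif6 and Eif1ad, so these counts do not describe start codon choice alone. Eif1ad, the closest to 0 at -0.004, turned positive with DESeq2's size factors (0.007). Eif1, which guards start codon choice and was the most abundant of them, stood at 159, 137 and 146 FPKM in the preeclampsia libraries and at 157, 181 and 172 FPKM in the control libraries. Only preeclampsia library 1 reached into the control range (-0.19, SE 0.10, adjusted p = 0.650 by edgeR). Its paralog Eif1b was at 14.43, 10.59 and 11.18 FPKM in the preeclampsia libraries and at 14.09, 12.05 and 16.24 FPKM in the control libraries (-0.21, SE 0.19).

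For many members the highest value came from 1 of the same 2 libraries, one in each group. Preeclampsia library 1 held the highest FPKM of 28 of the 66 members and control library 2 that of 17, while preeclampsia libraries 2 and 3 held 8 and 2 and control libraries 1 and 3 held 1 and 10. The same count was not made over all genes tested, so this pattern cannot be credited to translation factors as such. In eIF3, preeclampsia library 1 was the highest for 8 of 13 genes, and in the cap-binding and helicase class for 7 of 12. These 2 libraries were also the highest in the summed dividing-cell markers, at 341 FPKM in preeclampsia library 1 and 175.5 FPKM in control library 2, against 70.8 to 130 FPKM in the other 4. Among those 4 the orders differed. Control library 1, at 130 FPKM of these markers, held the highest value of 1 member, and control library 3, at 70.8 FPKM, that of 10. A link between the members and division was not tested. The lowest FPKM was found in control library 1 for 24 members and in preeclampsia library 2 for 20. Without preeclampsia library 1 the median log2 fold change of the members was -0.003, in place of 0.03, and without control library 2 it was 0.10.

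**Figure D5:**
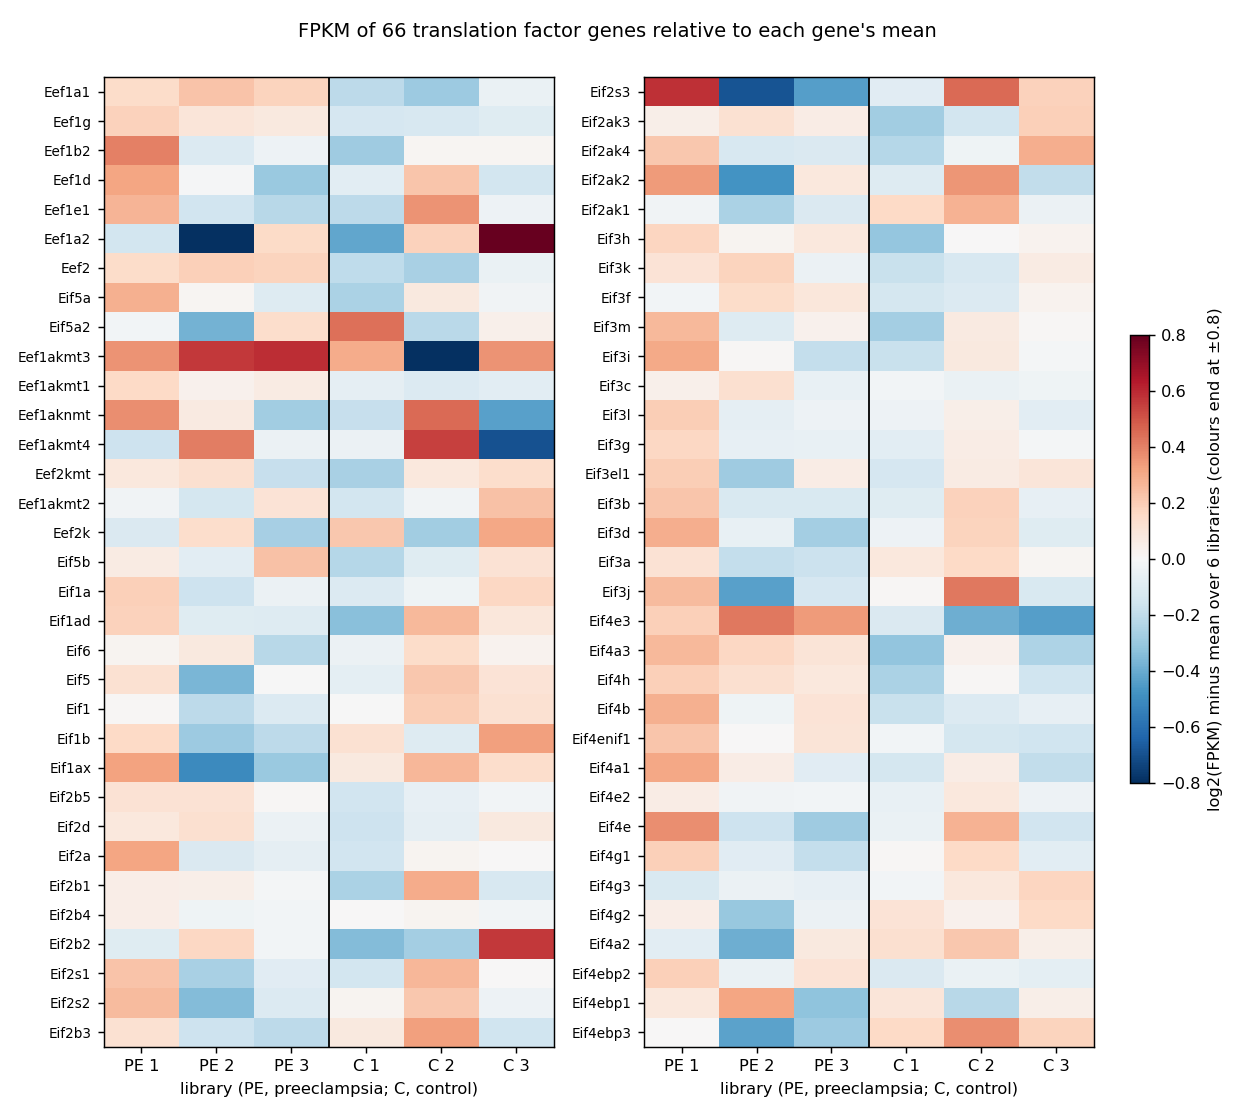
Colour gives log2 FPKM of each of the 66 genes in each library minus that gene's mean over the 6 libraries, by role, with preeclampsia libraries left of the line and control libraries right of it. Eef1a1, Eef1g and Eef2 are red in all 3 preeclampsia libraries, whereas for many other genes the red columns are preeclampsia library 1 and control library 2.

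The 9 oligopyrimidine members were all above 0 (median 0.20 on the log2 scale), where 51.7% of all genes were. They lay between 0.01 for Eif3el1 and 0.39 for Eef1a1, and the groups were apart in 4 of them, all higher, where 6.15% of all genes were. Of these 9, Eif3el1 turned negative with library size as the only scaling, in limma, and without control library 1, preeclampsia library 1 or preeclampsia library 3. Eef1d did so without preeclampsia library 1 or control library 3. The other 57 members had a median of 0.01, with 31 above 0. Read beside them, the 75 cytosolic ribosomal protein genes were all above 0, with a median of 0.39, again beside 51.7% of all genes above 0. Their groups were apart in 57, all higher, again beside 6.15% of all genes. Of these 75, edgeR called none after adjustment, with 53 higher at a p under 0.05 before it, where 4.13% of all genes were. DESeq2 called 15 of the 75, where it called 2.22% of all genes in either direction. The list of 9 was drawn up with earlier results of these data known and holds Eef1a1, Eef2 and Eef1g, described above as higher. The common direction of its genes is therefore not independent of that choice. The difference between the oligopyrimidine members and the others was not tested. Some of these genes have many pseudogenes, RefSeq naming 20 for Eef1a1, 16 for Eef1g, 5 for Eef2 and 124 in all for 36 of the 66 members, and reads of the copies could have been counted with the parent genes.

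Genes around the factors, from lists drawn up with earlier results known, gave no called difference either. Of 14 partners of translation, such as the poly(A)-binding protein gene Pabpc1 and the release factor gene Gspt1, 9 were above 0 and 5 below, beside 51.7% of all genes above 0. None of the 14 had an unadjusted p under 0.05 in edgeR, where 9.19% of all genes did. Pabpc1 stood at 379, 414 and 485 FPKM in the preeclampsia libraries and at 319, 362 and 409.7 FPKM in the control libraries (0.25, SE 0.16). Larp1, which binds oligopyrimidine mRNAs, stood at 120.2, 93.74 and 87.95 FPKM in the preeclampsia libraries and at 109.8, 121 and 103 FPKM in the control libraries (-0.13, SE 0.14). Of 13 genes of mTORC1 and its inputs, 5 were above 0 and 8 below, beside 51.7% of all genes above 0. The groups were apart in 3 of the 13 (Rptor, Tsc2 and Rragc), all lower, where 8.32% of all genes were. Rragc, a GTPase gene of amino acid sensing, stood at 214, 218 and 222 FPKM in the preeclampsia libraries and at 253, 261 and 264 FPKM in the control libraries (-0.23, SE 0.10, adjusted p = 0.539 by edgeR). Of the 13, only Rragc had an unadjusted p under 0.05 in edgeR, where 5.06% of all genes were lower at that level.

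Of 12 targets of the integrated stress response, the programme set off by eIF2 phosphorylation, 2 were above 0 and 10 below (median -0.25 on the log2 scale), beside 51.7% of all genes above 0. The groups were apart in 4 of the 12, all lower, where 8.32% of all genes were. Atf4, the central transcription factor gene of that response, stood at 60.65, 70.34 and 69.24 FPKM in the preeclampsia libraries and at 65.14, 61.78 and 65.09 FPKM in the control libraries, with overlap (0.08, SE 0.13). Chac1, a glutathione-degrading enzyme gene, stood at 1.65, 1.75 and 1.12 FPKM in the preeclampsia libraries and at 3.71, 2.73 and 2.23 FPKM in the control libraries (-0.93, SE 0.29, adjusted p = 0.470 by edgeR). Ppp1r15a, whose product GADD34 recruits the phosphatase that reverses eIF2 phosphorylation, stood at 19.93, 24.11 and 23.55 FPKM in the preeclampsia libraries and at 26.54, 29.66 and 30.52 FPKM in the control libraries (-0.33, SE 0.13, adjusted p = 0.515 by edgeR). In both genes every preeclampsia value was below every control value, and none of the 12 was called. These were the 2 with an unadjusted p under 0.05 in edgeR, where 5.06% of all genes were lower at that level. Phosphorylation of eIF2, eEF2 or the eIF4E-binding proteins is not measured by these data.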

How the data were processed

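RNA of cultured rat amniotic fluid cells was sequenced after oligo(dT) enrichment with adapters carrying molecular identifiers, per the labels' protocols. Reads were handled with HISAT2 2.2.1, StringTie 2.1.6, FastQC and cutadapt 1.9, per the submitters' processing notes. Neither the genome build nor the use of the identifiers is stated in the labels. The authors deposited 1 table with read counts and FPKM per gene, per the file headers, for all 6 libraries. Of the counts from 1 to 15, 35.07% to 38.05% were multiples of 4, so that low counts were not a plain tally of reads. Totals were 48402185 to 59193961 counts.

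Counts were compared with edgeR 4.0.16 in R 4.3.3 (filterByExpr, TMM scaling, quasi-likelihood test, no covariate), and p-values were adjusted by the Benjamini-Hochberg method over 15776 genes with a threshold of 0.05. The test was checked on simulated data. DESeq2 1.42.0, limma 3.58.1 on log2(FPKM + 1), other scalings, no filter on low counts, a replicate block and leaving out each library were tried as alternatives. Fold changes are preeclampsia over control. Groups were called apart where their FPKM ranges did not overlap; judging this on log2 CPM was added after seeing the data. Members, gene lists and roles were chosen with earlier results of these data known. Members described are those with an unadjusted p under 0.05, the most abundant of each role, paralog pairs, regulators and the oligopyrimidine members. Eif4enif1, Eif4ebp3, Eif2b5, Eef1akmt1, Eif2s3, Eif1ax, Eif2b2, Eif2ak1, Eef1akmt3 and Eif1ad were added after their values were seen. Gene coordinates are those of the deposited table; sequences and pseudogene names come from RefSeq's GRCr8 annotation.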

Additional observations from a re-analysis of the deposited data

How the results depend on the processing

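No setting called a member. Over all genes, DESeq2 called 350, limma on log2(FPKM + 1) without a filter called 1, and leaving out 1 library gave 0 to 2, in place of 0. Members with an unadjusted p under 0.05 numbered 6 in edgeR, 1 with a replicate block and 1 to 6 on leaving out 1 library. Same-numbered libraries did not deviate together (correlations 0.048, 0.041 and 0.01, with 4 of 6 libraries correlating best with their own number), so the numbers were not taken as pairs, and the block called 0 genes. The members' median log2 fold change of 0.03 ranged from -0.003 to 0.10 on leaving out 1 library. Judged on log2 CPM, 12 members were higher and 3 lower without overlap, in place of 11 and 2, where 7.25% and 8.3% of all genes were. The genes added were Eif3h, higher, and Eif1, lower. Of 41 members followed, 29 kept their direction in each of 14 alternatives that gave a value, limma's filter on FPKM leaving Eef1a2 and Eef1akmt3 out of 2. Those that turned lay between -0.18 and 0.09 before, and the cause was not tested. With DESeq2 or its size factors, Eif2ak2 was at 0.006, Eif2ak4 at 0.007 and Eif1ad at 0.007, and with the block Eif2ak4 was at 0.002 and Eif1ad at 0.007. With library size alone, Eif2b2 was at -0.023 and Eif3el1 at -0.004, and limma put Eif3el1 at -0.017 in each of its 3 settings. On leaving out 1 library, values ran from -0.105 to 0.168 for Eef1d, -0.129 to 0.125 for Eif1ad, -0.165 to 0.176 for Eif2ak2, -0.097 to 0.133 for Eif2ak4, -0.131 to 0.336 for Eif2b2, -0.179 to 0.056 for Eif2s1, -0.252 to 0.006 for Eif2s2, -0.068 to 0.12 for Eif3el1, -0.215 to 0.113 for Eif4e, -0.093 to 0.243 for Eif4ebp1, -0.128 to 0.036 for Eif4g1 and -0.32 to 0.062 for Eif5a2. With 3 libraries a group, the median standard error of a member's log2 fold change was 0.14, and even the log2 fold change of 0.65 for Eif4e3 was not called.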
